A study of Apostichopus japonicus with 12 samples.

Results

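Of the 30221 gene models measured in intestine of Apostichopus japonicus, a sea cucumber, 15 are described as xanthine dehydrogenase. They are all the models whose description contains the words xanthine dehydrogenase, in any case. BSL78_27459 was in addition singled out by name with its values in these animals already known, so its levels in the 30 °C group are given as a description, with no test. RNA was measured in 12 libraries from 12 animals, 3 in each of 4 groups: a control kept at 18 °C, 6 h at 26 °C, 48 h at 26 °C, and 6 h at 30 °C. The labels give a body weight of around 100 g and name no other treatment, genotype, age or sex. The heated ones were warmed by 2 °C per hour and timed from the arrival at the target temperature, so the warming phase was longer for 30 °C than for 26 °C. The control has no time of its own and serves every heated group.

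Xanthine dehydrogenase carries out the steps of purine breakdown that form urate. It oxidises hypoxanthine to xanthine and xanthine to urate, using a molybdenum cofactor, iron-sulphur clusters and FAD. In mammals the enzyme can be converted to an oxidase form that hands its electrons to oxygen and so makes superoxide and hydrogen peroxide, and the mammalian intestine is rich in it. The substrates come from AMP, GMP and their nucleosides through nucleotidases, deaminases and purine nucleoside phosphorylase.

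In these intestines 2 models stood high at 30 °C, BSL78_27459 and BSL78_27944, and both were low or at 0 in the other groups. BSL78_02725 was the model with the highest level at 18 and 26 °C, BSL78_00303 was lower, and BSL78_02715 was high in 1 control animal. The other 10 models gave between 1 and 57 reads each over all 12 libraries. Of the 15 models, 11 averaged 0.5 FPKM or more across the libraries and were tested, and 4 did not.

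FPKM is the number of reads per kilobase of a model's length, scaled per library by the authors. It is meant to let models of different length be compared, which is uncertain for a very short model. The number of reads behind each value was recovered from the steps between values. Libraries held from 1788303 to 3956056 reads on genes, and their FPKM sums ran from 562397 to 3014690, so the scaling between libraries matters here. At 30 °C the FPKM sums were 2078693 to 3014690 against 562397 to 1535293 in controls. With every library thinned to 1700000 reads, 12460 to 14736 genes were detected at 30 °C and 15083 to 18426 in controls. Spread between libraries within a group was large, and no batch is named in the labels. Villin, a protein of the gut brush border, was present in all animals: its model BSL78_02148 averaged 476 FPKM in controls and 173 at 30 °C. A further villin model, BSL78_02149, averaged 65.0 and 47.4 FPKM. Of the 20 tested models in the gut epithelium list described below, 13 had a log2 change above 0 at 30 °C against control.

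The models differ widely in length and often lie side by side. Their lengths run from 168 to 3345 bases with a median of 807, and 14 of the 15 lengths are multiples of 3, so they are called coding lengths. They lie on 8 scaffolds, 6 of which hold 2 or 3 of them on the same strand, 13 models in all. On scaffold MRZV01000006.1 BSL78_00302 (518152 to 526560) lies 4155 bases before BSL78_00303 (530716 to 559658). On MRZV01000059.1 BSL78_02714 (378974 to 390659) lies 31327 bases before BSL78_02715 (421987 to 436578). BSL78_02725 lies further on (561811 to 569554), with other gene models between. These models are on the plus strand. Of the 15, 8 carry the identical name putative xanthine dehydrogenase/oxidase. On both of these scaffolds the file's family column gives Fer2, an iron-sulphur domain family, for the first model only, BSL78_00302 and BSL78_02714. In the enzyme of mammals and insects the iron-sulphur domains are at the start of the protein, before the FAD and molybdenum domains.

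**Figure D1:**
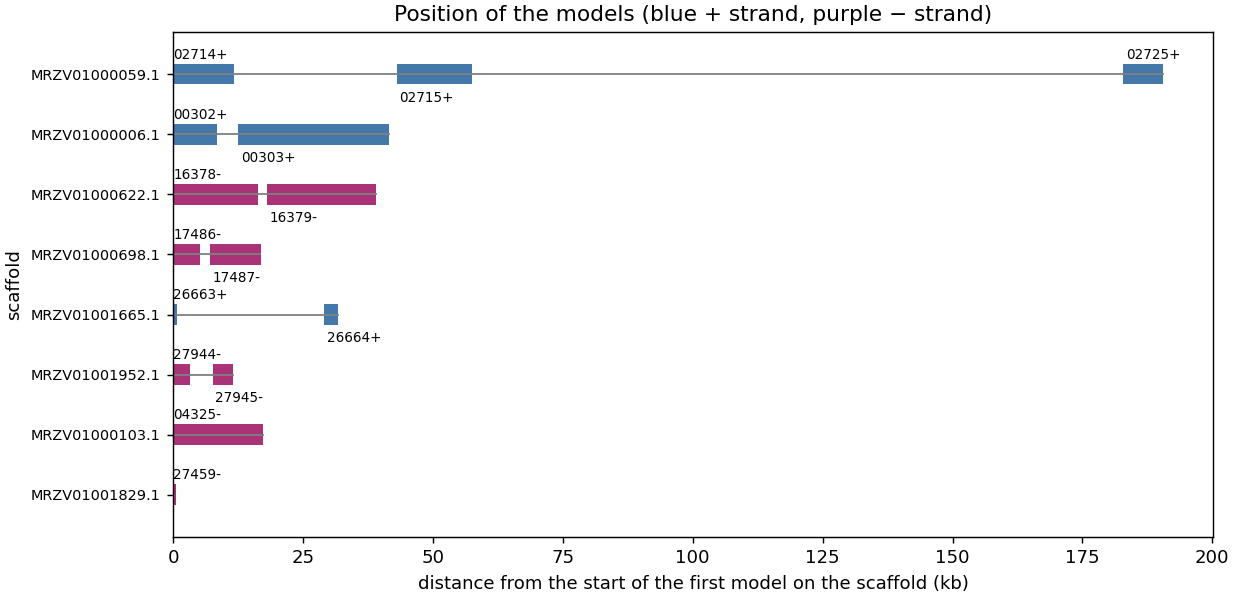
Position of the 15 models on their 8 scaffolds, as distance in kilobases from the start of the first model, with the last digits of each name and its strand; bars run from start to end of a model, and no bar is drawn narrower than 0.6 kb. On 6 scaffolds 2 or 3 models lie on one strand, in 1 case with other gene models between them, and BSL78_27459 is alone with a length of 168 bases.

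BSL78_27459 (Xanthine dehydrogenase/oxidase, scaffold MRZV01001829.1, 91429 to 91596, minus strand) spans 168 bases, the same as its coding length, and so has no intron in this annotation. It stood at 3489, 780 and 73.6 FPKM in the 30 °C animals 1 to 3, from 1045, 284 and 18 reads. In controls it was at 0, 0 and 3.91 FPKM, the last from 5 reads, and at 26 °C for 6 h at 0, 0 and 13.7 FPKM, the last from 9 reads. After 48 h at 26 °C it had 0 reads in each of the 3 animals, which allows up to 3.13 to 9.39 FPKM (3 reads per library). All 30 °C animals lay above all others, and the lowest of them was 18.8 times the highest control. Animal 3 was far below animals 1 and 2. On the log2(FPKM + 1) scale the difference from control was 8.44 (SE 1.27), given as a description.

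BSL78_27944 (putative xanthine dehydrogenase/oxidase, scaffold MRZV01001952.1, 74644 to 77950, minus strand) has a coding length of 687 bases in a span of 3307, so it holds introns. It stood at 1295, 290 and 37.0 FPKM in the 30 °C animals, from 1586, 432 and 37 reads. In controls it was at 0, 0 and 2.10 FPKM, from 0, 0 and 11 reads. At 26 °C for 6 h it was at 1.56, 2.82 and 11.6 FPKM, from 2, 5 and 31 reads, and after 48 h at 0.766, 0 and 0.511 FPKM, from 1, 0 and 2 reads. The order of the 30 °C animals was the same as for BSL78_27459, and the lowest of them was 17.6 times the highest control and 3.20 times the highest animal at 26 °C for 6 h.

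BSL78_27944 rose at 30 °C against control by 7.38 on the log2 scale (SE 1.04, limma adjusted p = 0.00395; mean 541 ± 665 against 0.701 ± 1.21 FPKM, SD, n = 3 each). The change was 8.72 without 30 °C animal 3 and 6.17 without 30 °C animal 1. The call held with each library left out, but not in a fit of only those groups, where 6 libraries set the spread (adjusted p = 0.223). Against 26 °C for 6 h it rose by 5.61 (SE 1.04, adjusted p = 0.0478). That call was lost in 10 of the 12 fits with a library left out (adjusted p up to 0.168), in all but those without 26 °C 6 h animal 3 or 30 °C animal 3. With the animal number as a block its adjusted p was 0.0919, with voom on the recovered reads 0.134 and after scaling every library to the same sum 0.186. Since BSL78_27944 follows BSL78_27459 library by library, its test is not independent of the values that singled out the latter.

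**Figure D2:**
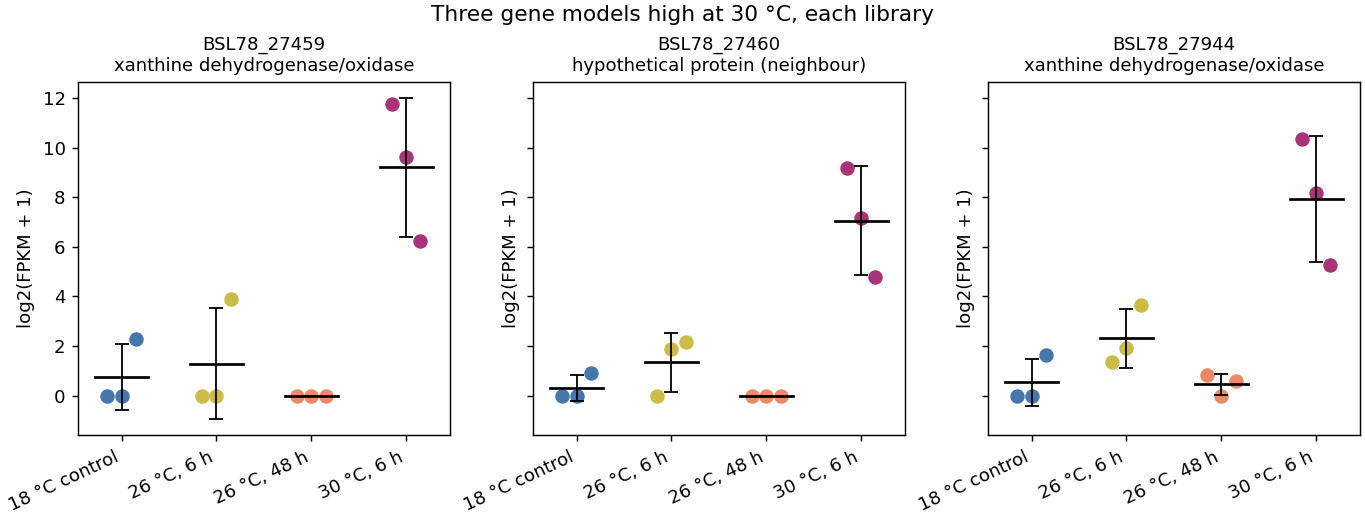
Levels of BSL78_27459, its neighbour BSL78_27460 and BSL78_27944 as log2(FPKM + 1), 1 point per animal (1 to 3 from left to right), with the mean and SD of the 3 animals of a group. The 30 °C animals lie above all others in each panel, with animal 1 highest and animal 3 lowest.

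BSL78_27459 and BSL78_27944 took reads in nearly the same proportion in the 30 °C animals 1 and 2. Of the reads on BSL78_27459 and BSL78_27944 together, BSL78_27459 held 39.7% (exact 95% interval 37.8 to 41.6) in 30 °C animal 1 and 39.7% (36.1 to 43.4) in animal 2. It held 32.7% (20.7 to 46.7) in animal 3 and 22.5% (10.8 to 38.5) in 26 °C 6 h animal 3. The lower shares came with wide intervals, and all intervals cover counting error only.

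The model next to BSL78_27459 had the same pattern. BSL78_27460, described as a hypothetical protein, begins 853 bases away on the same strand (92450 to 104286, length 722). It stood at 583, 143 and 26.6 FPKM at 30 °C, from 750, 223 and 28 reads. It was at 0, 0 and 0.909 FPKM in controls, at 0, 2.69 and 3.55 FPKM after 6 h at 26 °C and at 0 in the 3 animals of 48 h. Of the reads on these 3 models, BSL78_27460 held 22.2%, 23.7% and 33.7% in the 30 °C animals, BSL78_27944 46.9%, 46.01% and 44.6%, and BSL78_27459 30.9%, 30.2% and 21.7%. The 3 models lie on 2 scaffolds. Whether they are parts of 1 gene was not tested, so a count of models here is not a count of genes. Of all tested genes, BSL78_27460 had the pattern most like BSL78_27944 over the 12 libraries (Pearson r = 0.99) and the second most like BSL78_27459 (r = 0.98, after r = 0.98 with BSL78_27944). These values rest on the 30 °C libraries and are a description. The aligner and its handling of reads that match several places are not given in the sources used here, so how reads are divided between near-identical models is uncertain.

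The models beside BSL78_27944 did not share its level. BSL78_27945, also described as xanthine dehydrogenase, lies 4284 bases away on the same strand (82235 to 86251, length 305). It had 2 reads in all, 1 in 26 °C 48 h animal 1 and 1 in 30 °C animal 2. On the other side the hypothetical BSL78_27943, 8777 bases away, averaged 9.07 FPKM at 30 °C and 4.66 in controls.

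**Figure D3:**
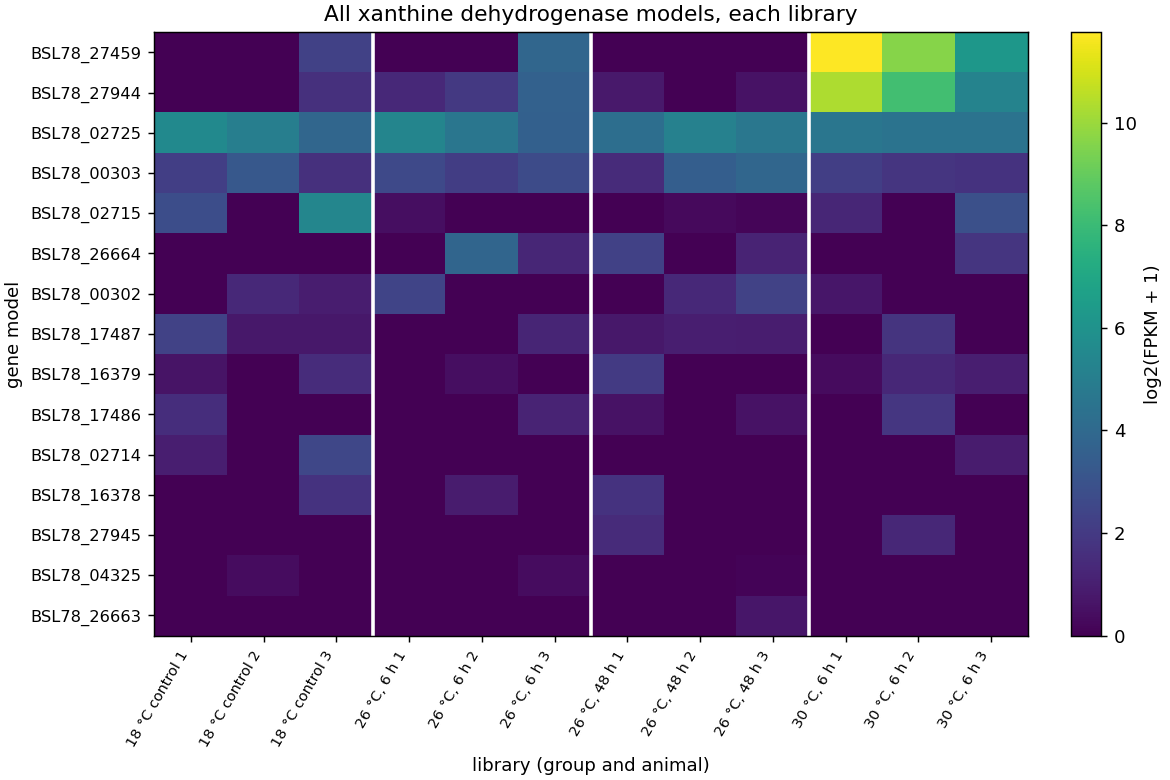
All 15 models (rows, by mean level) in the 12 libraries (columns, by group and animal); colour is log2(FPKM + 1). The 2 top rows are bright in the 30 °C columns, BSL78_02725 and BSL78_00303 are present in every library, and the lowest rows are at 0 in most.

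BSL78_02725 (putative xanthine dehydrogenase/oxidase, coding length 1554) was read in every library and did not differ between groups beyond its spread. It stood at 47.5, 31.3 and 13.6 FPKM in controls, 39.9, 23.97 and 11.04 at 26 °C for 6 h, 18.3, 34.7 and 24.5 after 48 h and 23.5, 21.1 and 21.7 at 30 °C. Every heated group overlapped the controls. Its log2 changes against control at 26 °C were -0.30 for 6 h and -0.13 for 48 h, and that at 30 °C was -0.30 (SE 0.61 each; adjusted p = 0.954, 1 and 0.914). After scaling every library to the same sum the change at 30 °C was -1.54 (adjusted p = 0.245), while the median of all genes in that comparison moved from -0.07 to -0.85.

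BSL78_00303 (putative xanthine dehydrogenase/oxidase) has the longest coding length, 3345 bases, and was also read in every library. It stood at 3.48, 8.59 and 2.12 FPKM in controls, 5.11, 3.36 and 5.36 at 26 °C for 6 h, 1.73, 10.3 and 13.6 after 48 h and 3.52, 2.48 and 2.26 at 30 °C. The groups overlapped, with 48 h animals 2 and 3 the highest. The log2 changes were 0.11, 0.58 and -0.46 in the same order (SE 0.67 each; adjusted p = 0.996, 1 and 0.86). Its neighbour BSL78_00302 gave 46 reads in all, 20 of them in 48 h animal 3.

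BSL78_02715 (putative xanthine dehydrogenase/oxidase, coding length 1608) rested on a single animal. It stood at 5.80, 0 and 41.9 FPKM in controls, the last from 513 of its 560 reads. It was at 0.332, 0 and 0 FPKM at 26 °C for 6 h, at 0, 0.245 and 0.109 after 48 h, and at 1.40, 0 and 6.41 at 30 °C. Because control animal 2 was also at 0, the groups overlapped. The changes of -2.59 after 6 h at 26 °C and -2.57 after 48 h (SE 1.06 each) did not pass (adjusted p = 0.566 and 1), and were -1.24 and -1.23 without control animal 3. The change at 30 °C was -1.35 (SE 1.06, adjusted p = 0.705), and 0.00049 without control animal 3. Its neighbour BSL78_02714, described as Xanthine dehydrogenase, was read in 3 of the 7 libraries in which BSL78_02715 had reads, with 2 and 29 reads in control animals 1 and 3 and 1 read in 30 °C animal 3.

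Some models that lie side by side had correlated values, most of them from few reads. Among the 55 pairs of tested models the highest Pearson r of log2(FPKM + 1) over the 12 libraries was that of BSL78_27459 and BSL78_27944 (0.98). Next came the side-by-side pairs BSL78_02714 and BSL78_02715 (0.97), BSL78_17486 and BSL78_17487 (0.84) and BSL78_00302 and BSL78_00303 (0.71). The next pair stood at 0.44 and the median of all pairs was -0.13. Control animal 3 held 29 of the 32 reads of BSL78_02714 and 513 of the 560 of BSL78_02715. BSL78_17486, BSL78_17487 and BSL78_00302 had 20, 31 and 46 reads in all. The points also share library depth and many values of 0, so these are descriptions and show no shared pattern.

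The genes most like the other members were of varied description. BSL78_03918, a subunit of RNA polymerase II (RPB4-like), was nearest to BSL78_02725 (r = 0.83) and the hypothetical BSL78_22280 to BSL78_00303 (r = 0.87). The notch-like BSL78_26702 came after BSL78_02714 for BSL78_02715 (r = 0.94).

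The low models had too few reads to show a pattern. BSL78_26664 (546 bases) gave 32 reads, 19 of them in 26 °C 6 h animal 2 and 0 in controls. BSL78_16379 (2133 bases) gave 57 reads, 29 of them in control animal 3, and its neighbour BSL78_16378 gave 11, 8 of them in the same animal. BSL78_17487 and BSL78_17486 gave 31 and 20 reads. BSL78_04325, with 2625 bases the second longest, gave 7 reads, and BSL78_26663 gave 1. In these data 3 reads on a kilobase correspond to 0.394 to 2.06 FPKM depending on the library, so absence cannot be read from such values.

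Over the 11 tested models, the median log2 change at 30 °C against control was -0.30, beside -0.07 over all 18729 tested genes, with 5 above 0. Nothing is read from BSL78_27459, which was singled out with its values known. Of the other 10 models 1 was called, BSL78_27944, which rose, where 0.651% of all tested genes were called (0.587% rose and 0.0641% fell). It follows BSL78_27459 library by library, so this call is not independent of that choice. The call held with each library left out and was lost in the fit of only the 30 °C and control groups. The remaining models had adjusted p of 0.665 to 0.975. At 26 °C for 6 h 0 of 11 were called against control by limma, 1 at an unadjusted p under 0.05 and 0 by voom (0.0641% of all genes called, 0.0481% rose and 0.016% fell; median -0.12 beside -0.08). After 48 h 0 were called against control, 1 at an unadjusted p under 0.05 and 0 by voom (0% of all genes; median -0.11 beside 0.03).

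**Figure D4:**
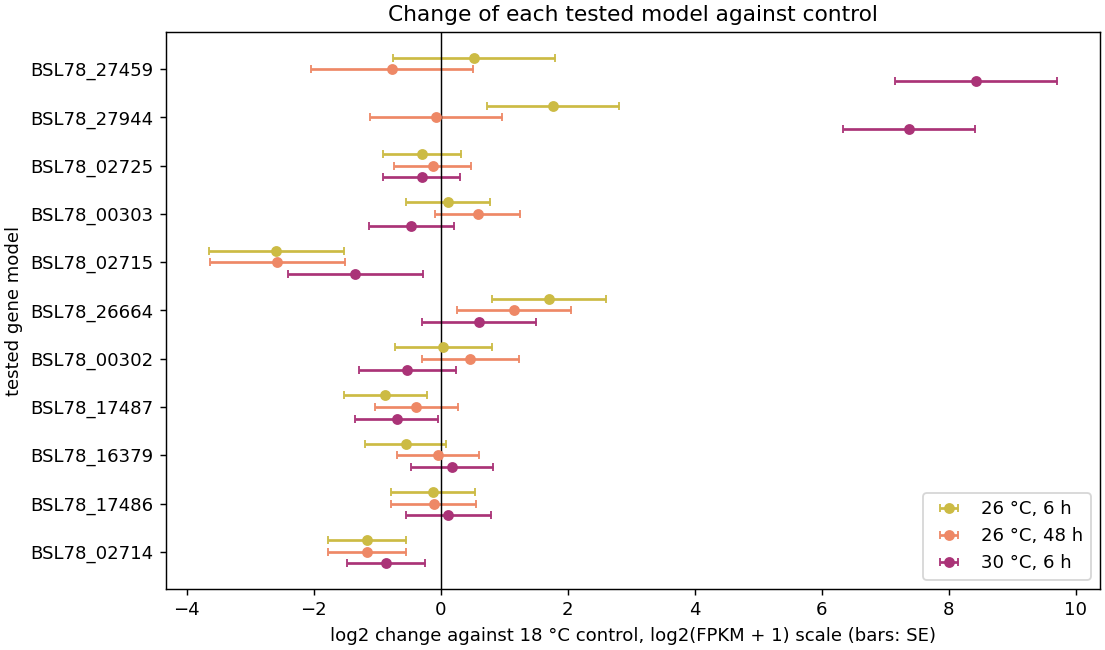
Log2 change of each of the 11 tested models against control on the log2(FPKM + 1) scale, with its standard error, for the 3 heated groups. At 30 °C BSL78_27459 and BSL78_27944 stand at 8.44 and 7.38, and every other value drawn lies between -2.59 and 1.77.

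The heated groups were also compared directly. At 30 °C against 26 °C, both for 6 h, nothing is again read from BSL78_27459. Of the other 10 models 1 was called, BSL78_27944, which rose, where 0.246% of all tested genes were called (0.198% rose and 0.0481% fell). This call, too, is not independent of the choice of BSL78_27459. It was lost in 6 of the 7 other settings and in 10 of the 12 fits with a library left out. The median was 0.24 beside 0 over all genes. Between 48 h and 6 h at 26 °C 0 were called by limma, 0 at an unadjusted p under 0.05 and 0 by voom (0.0107% of all genes; median 0.02 beside 0.12). BSL78_27944 lay lower after 48 h than after 6 h in every animal, at most 0.766 FPKM from 1 read against at least 1.56 FPKM from 2 reads. Both values lie below the level of 3 reads in their libraries (2.30 and 2.33 FPKM), so no decline is read from them. How many of all genes were separated in this way was not counted. The change of BSL78_27944, -1.84 (SE 1.04), did not pass (limma adjusted p = 0.756). The comparisons at 26 °C and 30 °C share their controls or their 26 °C 6 h animals.

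The order of levels differed between the groups by description. In controls BSL78_02725 (30.8 ± 16.96 FPKM, SD, n = 3) was followed by BSL78_02715 (15.9 ± 22.7) and BSL78_00303 (4.73 ± 3.41), and each neighbour in this order overlapped the next. After 48 h at 26 °C BSL78_02725 (25.8 ± 8.31) lay above BSL78_00303 (8.56 ± 6.14) in every animal. At 30 °C BSL78_27459 (1448 ± 1803) overlapped BSL78_27944 (541 ± 665). Its higher FPKM rests on its short length of 168 bases, as it had fewer reads, 1347 against 2055. BSL78_27944 lay above BSL78_02725 (22.1 ± 1.24), which in turn lay above BSL78_00303 (2.76 ± 0.673), without overlap.

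As a share of each library's reads on genes (RPM, scaled to the same total in all libraries), the 2 models and the other 13 stood on different sides of the controls at 30 °C. All 15 models took 84.3, 109 and 221 RPM in controls, 75.4, 66.1 and 52.9 at 26 °C for 6 h, 48.6, 158 and 195 after 48 h and 1023, 208 and 42.7 at 30 °C. BSL78_27459 and BSL78_27944, grouped after their values were seen, took 96.6%, 87.0% and 40.4% of that in the 30 °C animals and at most 1.95% in controls. They took 989, 181 and 17.3 RPM at 30 °C against 0, 0 and 4.31 in controls. The other 13 models took 34.6, 27.05 and 25.5 RPM at 30 °C against 84.3, 109 and 217 in controls, without overlap. Their FPKM summed to 29.3, 31.6 and 34.7 at 30 °C against 64.1, 42.5 and 67.97 in controls, also without overlap, and overlapped the sums of both 26 °C groups. Leaving out BSL78_02715, a choice made after its values were seen, the FPKM sums were 27.9, 31.6 and 28.3 at 30 °C against 58.3, 42.5 and 26.1 in controls, and overlapped. These sums were not tested. The FPKM of every library were also scaled to the same sum. At 30 °C the median log2 change against control was then -0.85 over all tested genes and -0.95 over the 11 tested models. On the deposited FPKM these medians were -0.07 and -0.30. No median of all genes was computed in RPM, so how general the lower RPM is was not tested. In whole tissue, fewer cells of a type and less RNA per cell cannot be told apart.

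**Figure D5:**
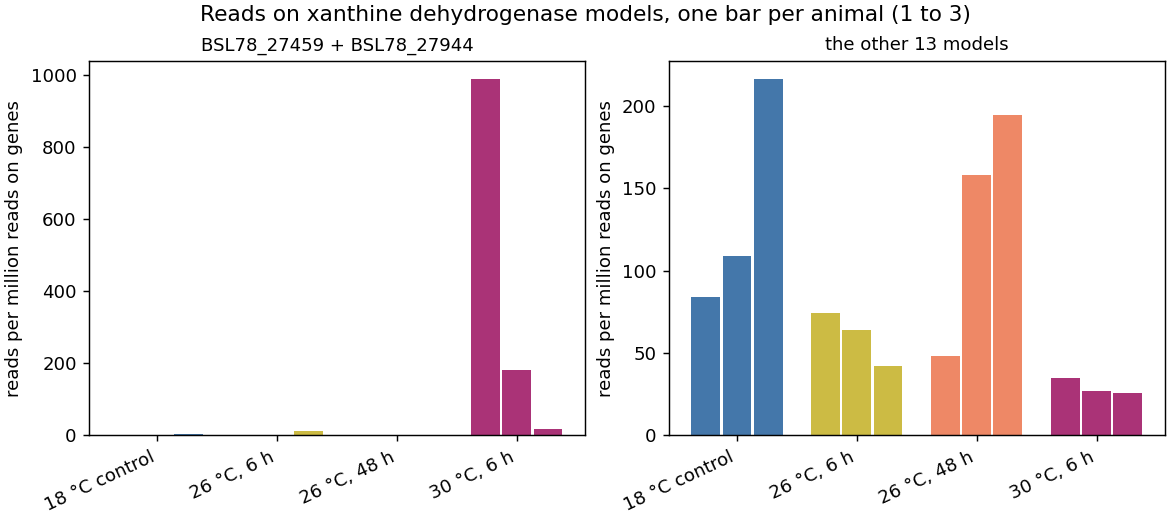
Share of each library's reads on genes, in RPM, for BSL78_27459 and BSL78_27944 summed (left) and the other 13 models summed (right), with 1 bar per animal and a separate vertical axis in each panel. On the left the 30 °C bars run from 989 down to 17.3. On the right they lie between 25.5 and 34.6, below all control bars. No median of all genes was computed in RPM. At 30 °C against control that median was -0.07 on the deposited FPKM and -0.85 with every library scaled to the same FPKM sum (log2 change).

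Markers of other cells were read beside these values. The 29 models of the gut epithelium list, 2 of them at 0 in all libraries (a sucrase-isomaltase and a pancreatic alpha-amylase model), summed to 577 to 1064 FPKM in controls and 220 to 781 at 30 °C. At 26 °C they summed to 503 to 1537 after 6 h and 323 to 693 after 48 h. The 44 muscle models, 1 of them (titin-like) at 0 throughout, summed to 556 to 1020 FPKM in controls, 608 to 701 and 959 to 1201 at 26 °C for 6 h and 48 h, and 1067 to 1865 at 30 °C. In RPM the gut epithelium list ran from 792 to 1540 in controls and from 176 to 707 at 30 °C, without overlap, and the muscle list from 1034 to 1661 and from 496 to 1352, which overlapped. The germ line list ran from 91.02 to 1462 RPM in controls and from 53.4 to 531 at 30 °C, and the neuron list from 42.5 to 108 and from 18.9 to 54.9. The 7 germ line models, none at 0 throughout, summed to 54.7 to 610 FPKM in controls and 64.7 to 477 at 30 °C. Most of it was vitellogenin 2, a yolk protein, so the sums follow that protein and do not measure germ cells. The vasa models BSL78_01359 and BSL78_07283 averaged 8.97 and 3.12 FPKM in controls and 5.56 and 3.33 at 30 °C. The 36 neuron models, 3 of them at 0, all synaptotagmins, summed to 39.2 to 60.9 FPKM in controls and 45.6 to 125 at 30 °C. These sums are carried by the highest models. Model by model on the log2(FPKM + 1) scale, the 20 tested gut epithelium models had a median change of 0.25 at 30 °C against control. Of them 13 lay above 0. The 28 tested muscle models had a median of -0.42, with 11 above 0. Of all these marker models 1 was called, alpha-amylase 4N (BSL78_20389), a starch-digesting enzyme, which rose at 30 °C from 0.260 ± 0.450 to 58.4 ± 52.6 FPKM (limma adjusted p = 0.00742). The part of these marker lists in the rise of BSL78_27944 and in the lower RPM of the other 13 models, and that of the FPKM sums and gene numbers above, was not tested.

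No model was called in the rest of purine metabolism, where calls were rare among all genes too. Of 67 other models in 6 lists defined by words in the descriptions, 56 were tested. Of these 0 rose and 0 fell in any of the 5 comparisons by limma, with 0 called by voom. Among all tested genes limma called 0.0641%, 0% and 0.651% against control (26 °C for 6 h, 48 h and 30 °C). It called 0.246% at 30 °C against 26 °C and 0.0107% between the 26 °C times. At such shares 0 calls among 56 models is no result about these lists. At an unadjusted p under 0.05 there were 6 models at 26 °C for 6 h, 0 for 48 h and 1 at 30 °C, each against control. There was 1 at 30 °C against 26 °C and 4 at 48 h against 6 h. Over all 18729 tested genes the counts at this level were 1510, 852, 1942, 2190 and 1313 in the same order. Their median change at 30 °C against control was -0.14, beside -0.07 over all genes.

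Upstream of xanthine dehydrogenase, 24 nucleotidase, deaminase and phosphorylase models were found and 20 tested. The highest was adenosine deaminase CECR1-like (BSL78_08039), which turns adenosine into inosine. It stood at 157, 181 and 53.8 FPKM in controls, 161, 268 and 43.1 at 26 °C for 6 h, 168, 28.5 and 146 after 48 h and 28.1, 34.05 and 239 at 30 °C. At 30 °C animal 3, the one with the lowest BSL78_27944, had the highest level. The upstream list summed to 483, 484 and 486 FPKM at 26 °C for 6 h against 335, 275 and 184 in controls, without overlap. In RPM the same sums overlapped (267 to 746 against 190 to 310). At 30 °C the upstream list took 54.6 to 110 RPM, below all controls, while its FPKM sums of 110 to 389 overlapped them. The synthesis list (22.9 to 27.3 RPM against 34.4 to 216 in controls) and the carrier list (13.5 to 30.8 against 38.6 to 219) were likewise below all controls at 30 °C in RPM and overlapped in FPKM. The lower RPM of the other 13 xanthine dehydrogenase models at 30 °C was also seen in these lists. Sulfite oxidase was below all controls too (12.6 to 16.2 against 18.8 to 131 RPM). The salvage list (1.26 to 4.51 against 0 to 12.9) and the cofactor list (1.26 to 5.26 against 4.82 to 16.97) overlapped. The share of all genes below all controls in RPM was not computed.

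Purine salvage, which returns bases and nucleosides to nucleotides, had 2 models, both tested. Hypoxanthine-guanine phosphoribosyltransferase (BSL78_13921), which competes with xanthine dehydrogenase for hypoxanthine, averaged 4.14 ± 4.29 FPKM in controls and 4.78 ± 2.09 at 30 °C. Of 17 purine synthesis models 16 were tested. The highest, ribose-phosphate pyrophosphokinase 2 (BSL78_25849), which makes the activated ribose for purines, averaged 12.6 ± 9.45 FPKM in controls and 9.10 ± 8.40 at 30 °C. The words used for enzymes that break down urate, such as uricase and allantoinase, matched 0 descriptions.

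The cofactor genes were low. The 5 models for making, inserting or sulphurating the molybdenum cofactor, all tested, summed to 3.20 to 5.85 FPKM in controls and 1.52 to 8.56 at 30 °C. Molybdopterin synthase catalytic subunit (BSL78_05761), which makes a precursor of the cofactor, averaged 0.952 ± 0.968 FPKM in controls and 2.57 ± 3.91 at 30 °C. Its level at 30 °C came from animal 1 (7.07 FPKM, 9 reads). Sulfite oxidase (BSL78_11873), another enzyme with this cofactor, averaged 49.5 ± 30.2 FPKM in controls, 54.2 ± 24.6 and 17.7 ± 5.03 at 26 °C for 6 h and 48 h, and 31.1 ± 2.22 at 30 °C. Of 18 models of nucleoside and urate carriers 12 were tested. The highest, equilibrative nucleoside transporter 1 (BSL78_12078), which carries nucleosides across membranes, averaged 14.2 ± 11.9 FPKM in controls and 8.67 ± 8.07 at 30 °C.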

How the data were processed

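The authors deposited FPKM values for 30221 gene models in 12 libraries, with description, scaffold, start, end, strand and length. Per the labels' protocols, RNA of each animal was extracted with Trizol and mRNA libraries were sequenced on an Illumina HiSeq. The aligner, counter, strand setting and genome build are not given in the sources used here. Since a RefSeq gene table matched 0 identifiers, names and coordinates were taken from the deposited table, and no sequence is shown. Reads were recovered as FPKM times length over the smallest step of a library; 100% of values came out whole within 0.05 of a read. There were 0 columns from samples outside the series and 0 identical library pairs.

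The 18729 models with a mean of at least 0.5 FPKM entered a limma fit (version 3.58.1, R 4.3.3) of log2(FPKM + 1), a scale that understates changes of low genes. One model held a mean for each of the 4 groups (8 residual and 5.652 prior degrees of freedom). P-values are two-sided and adjusted over all tested models (Benjamini-Hochberg, threshold 0.05). The fit was tested on simulated data. Alternatives were a pseudocount of 0.1, no filter, a mean of at least 5 FPKM, scaling every library to the same sum, only the groups compared, the animal number as a block, voom on the recovered reads, and each library left out. Members, lists and tests were chosen with earlier results of these data known. Named were all members, the highest model of each purine list, the nearest neighbours and the most similar genes. List entries that matched by accident were dropped from their descriptions. Villin, the vasa models and the marker models at 0 were named after their values were seen.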

Additional observations from a re-analysis of the deposited data

How the results depend on the processing

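Of 11 models, 0 were called at 26 °C against control and between the 26 °C times in every fit, and no model other than BSL78_27459 and BSL78_27944 was called in any. At 30 °C against control the call of BSL78_27944 was lost in the fit of only the groups compared and held with each library left out. At 30 °C against 26 °C its call was lost with a pseudocount of 0.1, no filter, every library scaled to the same sum, only the groups compared, the replicate block and voom. It was also lost in 10 of the 12 fits with a library left out. The cause was not tested. For BSL78_27944 against control the change was 6.17 to 8.72 with each library left out and 6.29 to 9.75 otherwise.

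Among changes that passed no test, the sign turned for BSL78_27944 after 48 h against control (0.42 with a pseudocount of 0.1, -0.34 to 0.47 with each library left out) and for BSL78_27459 after 6 h at 26 °C (-0.77 to 1.29). It turned for BSL78_02725 after 48 h against control (0.055 scaled to the same sum, -0.61 to 0.26) and at 30 °C against 26 °C (0.0062 with a pseudocount of 0.1, 0.067 with voom, -0.47 to 0.41). With libraries left out it also turned for that model after 6 h at 26 °C (-0.78 to 0.17), at 30 °C against control (-0.78 to 0.086) and between the 26 °C times (-0.30 to 0.58). BSL78_00303 after 6 h at 26 °C gave -0.11 scaled to the same sum and -0.24 to 0.57 with libraries left out. BSL78_02715 gave -2.71 to 0.00049 at 30 °C against control and -0.063 to 0.16 between the 26 °C times.

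The animal numbers gave no clear pairing of the libraries. Deviations of the 18 same-number pairs correlated at -0.18 to 0.15, 1 above 0.1, and 2 of 12 libraries correlated best with their own number. With 3 libraries a group, such values cannot exclude a batch shared by number. With the animal number as a block the change of BSL78_27944 at 30 °C against control kept its call (limma adjusted p = 0.0134). With 3 animals a group an exact permutation test cannot go below 0.1, so calls rest on the spread shared across groups. Models with few reads cannot show a difference at this depth.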
